A study of Mus musculus with 4 samples.

Results

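Zeb2, Zeb1, Zbtb18 and Bcl11a encode DNA-binding repressors, and their H3K27ac peaks in adult mouse cortex are described here. The 4 genes, of 21755 protein-coding genes in the annotation, were selected by the width of promoter peaks in these same data (those of Bcl11a and Zbtb18 among the widest), so the widths and signals below are descriptions and were not tested. A gene's locus was taken as the gene with 200 kb on either side, and the 4 loci held 148 of the 72027 peaks in the authors' replicated list. Of these, 51 belonged to Zeb2, 12 to Zeb1, 26 to Zbtb18 and 59 to Bcl11a.

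Chromatin immunoprecipitation sequencing was directed at H3K27ac, the acetylation of a lysine in the tail of histone H3 that marks active promoters and enhancers. Left cerebral cortex was taken from female mice of the strain B6CASTF1/J, an F1 hybrid between C57BL/6J and CAST/EiJ, as adults of 2 months. The 4 samples were 2 pools, I and J, each of 4 biosamples and each sequenced as 2 technical libraries. There was a single tissue and no second condition, and each pool had 1 peak list, so the spread given below is that between pool I and pool J (n = 2). Whole tissue was used, so a lower signal from fewer acetylated cells cannot be told apart from less acetylation per cell. Of the cortex genes looked up to check the tissue label, Snap25, Slc17a7, Gad1, Slc1a3 and Mbp (5 of 5) had a promoter peak. Alb, Myh6 and Cd3d, which mark liver, heart and T cells, had no promoter peak in any of the 3 lists used for this count (replicated, pool I and pool J).

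Zeb2 and Zeb1 are paired zinc finger proteins that bind E-box motifs, recruit the co-repressor CtBP and interact with Smads, the messengers of BMP and TGF-beta signals. Zeb2 is known in the forebrain for its part in the timing of cortical neurogenesis, the migration of interneurons and myelination. Zbtb18, also known as RP58, has a BTB domain and zinc fingers and represses Id genes and Neurog2 as cortical neurons differentiate. Bcl11a, also known as CTIP1, works with the NuRD complex, is needed for the identity of deep-layer and sensory cortical neurons, and silences embryonic globin genes in mouse red blood cells.

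The starts of these genes differed in base composition and in how peaks lay over them, and 4 sequences that show this are given below on the strand of the gene, with CpG dinucleotides in capitals. The first is the stretch just before the 5′ end of the annotated Zbtb18 gene (250 bases of a RefSeq promoter window, chr1:177442101-177442350, mm10, plus strand), with 84.0% G and C and 47 CpGs. None of its bases lay inside a peak of the replicated or pool J list, and 7.20% lay inside a pool I peak. The second lies before an internal Zbtb18 start (chr1:177445571-177445820, plus strand) and has 2 CpGs and 100% of its bases inside peaks in the replicated, pool I and pool J lists. The third lies before the most upstream Zeb2 start (chr2:45117443-45117692, minus strand), with 9 CpGs and 100% inside a peak in the same 3 lists. The fourth is 120 bases at the summit of the Bcl11a promoter peak (chr11:24081340-24081459, plus strand), with 8 CpGs. RefSeq windows (GRCm38.p6) were found for 3 of the 4 genes, 10 windows in all.

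Zbtb18 upstream start: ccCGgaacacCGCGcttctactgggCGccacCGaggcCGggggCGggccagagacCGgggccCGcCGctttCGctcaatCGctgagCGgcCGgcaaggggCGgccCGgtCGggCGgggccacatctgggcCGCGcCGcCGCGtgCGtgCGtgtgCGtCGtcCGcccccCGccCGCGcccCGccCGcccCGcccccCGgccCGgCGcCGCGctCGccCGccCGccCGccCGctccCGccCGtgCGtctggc

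Zbtb18 internal start: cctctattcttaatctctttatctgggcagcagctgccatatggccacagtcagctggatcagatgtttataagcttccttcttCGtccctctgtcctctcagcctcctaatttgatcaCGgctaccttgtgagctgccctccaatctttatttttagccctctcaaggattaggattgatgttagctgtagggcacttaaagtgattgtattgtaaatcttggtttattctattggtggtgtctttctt

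Zeb2 upstream start: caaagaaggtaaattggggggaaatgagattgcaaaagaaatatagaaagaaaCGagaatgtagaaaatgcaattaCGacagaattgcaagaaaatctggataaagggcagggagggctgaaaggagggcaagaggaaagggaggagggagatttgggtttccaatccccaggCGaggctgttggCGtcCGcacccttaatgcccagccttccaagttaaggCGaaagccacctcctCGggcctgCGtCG

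Bcl11a promoter summit: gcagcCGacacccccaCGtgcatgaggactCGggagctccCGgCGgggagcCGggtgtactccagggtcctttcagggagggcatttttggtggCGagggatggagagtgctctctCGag

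CpG-rich starts also lay inside peaks: among the 10 RefSeq windows of 300 bases, the Bcl11a window had 23 CpGs and the most downstream Zeb2 window 19, and both were 100% inside replicated peaks, while in pool J 46.3% of the Bcl11a window and 100% of the Zeb2 window were inside. Over all 32851 RefSeq promoter windows of 300 bases, the median was 7 CpGs and 52.7% G and C. At Zbtb18 the window at the 5′ end of the gene, with 51 CpGs, fell in the replicated list into a gap between a 699 bp peak on its upstream side (signal 9.57) and a 270 bp peak on its downstream side (signal 6.66). The 300-base windows of the other 4 Zbtb18 starts had 1 to 3 CpGs and were 76.7 to 100% inside replicated peaks, and the window at the 5′ end was 22.7% inside a pool I peak and at 0 in pool J.

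Zeb2 lies on the minus strand of chromosome 2 (chr2:44983632-45117395, 133764 bp, ENSMUSG00000026872.17), and its 8 transcription start sites in the GENCODE basic set span 7107 bp. All 8 sites were inside a peak in the replicated, pool I and pool J lists, and 3 replicated peaks overlapped the 1000 bp on either side of a site, the distance used here to call a promoter peak. The peak at the most upstream start, in the first intron and over the start itself, was 4741 bp wide with a signal of 12.1, where signal is the value given by the authors' peak caller on a scale not stated. Its widest match was 4803 bp with a signal of 22.0 in pool I and 4583 bp with 10.8 in pool J. The peak at the most downstream starts was 2682 bp wide with the highest promoter signal of the 4 genes, 18.2, in the top 1% of the list (percentile 99.0). In pool I it was part of a 4762 bp peak of signal 22.1, and in pool J it was a 2682 bp peak of signal 14.1. The remaining promoter peak, of 1336 bp, lay between them, with a signal of 9.98 in the replicated list, 14.3 in pool I and 6.31 in pool J. The antisense transcript Zeb2os starts within 1000 bp of all 3 peaks, so their signal cannot be given to Zeb2 alone.

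Behind its promoters, peaks lay over most of the length of Zeb2. The gene body held 43 further peaks, of which 28 had their summit in the third intron of the longest transcript, and these 28 summed to 76.7 kb. The widest of them was 13451 bp (chr2:45051017-45064467, signal 8.39), 56.1 kb from the 5′ end. It ranked 4 by width in the whole replicated list and 2 among peaks away from basic-set promoters. With the start sites of every annotated transcript, it counted as a promoter peak of Zeb2. Pool I had a single 13491 bp peak there with a signal of 10.8, whereas pool J had 6 peaks of 4604 bp at most with a highest signal of 6.24, together over 90.3% of it. A 10763 bp and a 9719 bp peak of the same intron (signals 6.95 and 6.55) lay inside 1 pool I peak of 25352 bp, the second widest of the pool I list. That pool I peak took in 5 replicated peaks and 8 pool J peaks. The 3 highest body peaks had signals of 11.9, 10.8 and 9.66 and lay just behind the promoters, 8.56 to 12.6 kb from the 5′ end. In pool I their signals were 22.1, 15.3 and 13.1, and in pool J 7.63, 9.07 and 5.35. The 22.1 of pool I is the value of the 4762 bp peak that also covers the promoter.

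Zbtb18 lies on the plus strand of chromosome 1 (chr1:177442351-177450764, 8414 bp, ENSMUSG00000063659.11), and its 4 basic-set start sites span 1526 bp, all inside a peak in the replicated, pool I and pool J lists. Its wide promoter peak of 10807 bp (chr1:177444473-177455279, signal 9.07) ran past the 3′ end of the gene, and its summit lay in exon 2, 5.23 kb from the 5′ end of the gene. It ranked 12 by width among 19727 promoter peaks and 19 among all peaks. Pool I showed a single 12979 bp peak with a signal of 13.5, which also covered the 1426 bp peak at the more upstream starts (signal 8.36). Pool J showed 4 separate peaks of 3378 bp at most with a highest signal of 6.12 along the wide peak, and a 1470 bp peak of signal 6.86 at the upstream starts. The antisense transcript Gm26801 starts near the 1426 bp peak and the 270 bp peak. By basic-set starts, the 270 bp peak was the only gene body peak that was not a promoter peak. Its signal was lower in pool I (6.14) than in pool J (7.05). It and the 699 bp peak just before the gene lie within 1000 bp of the RefSeq start at the 5′ end. That start is not in the basic set, so they were counted as a gene body and a flank peak.

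The Zbtb18 wide peak had its summit over coding sequence, and 120 bases there (chr1:177447524-177447643, mm10, plus strand) are shown because they hold the E-box CAGGTG, in capitals, that Zeb factors are known to bind.

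Zbtb18 wide peak summit: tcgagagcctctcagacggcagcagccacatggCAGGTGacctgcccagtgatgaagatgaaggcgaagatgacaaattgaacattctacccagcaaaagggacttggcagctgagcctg

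Bcl11a lies on the plus strand of chromosome 11 (chr11:24078056-24174123, 96068 bp, ENSMUSG00000000861.15) with 4 start sites over 2614 bp, all inside 1 promoter peak of the replicated list and of pool I, and 3 of the 4 inside a peak of pool J. That peak was 11773 bp wide (chr11:24073125-24084897, signal 13.9) and ranked 6 by width among promoter peaks and 11 among all peaks. Its match was a single 11832 bp peak with a signal of 17.2 in pool I, against 3 peaks in pool J, the widest of 7072 bp, with a highest signal of 10.6. The 3 pool J peaks together covered 94.8% of it. The coding gene A830031A19Rik, on the other strand, and the long non-coding gene Gm12063 also start within 1000 bp of it, so the peak is shared. The gene body held 44 further peaks, 35 of them with the summit in the second intron, together 44.6 kb. The 3 highest had signals of 9.46, 7.72 and 7.56, at 67.1, 17.1 and 13.8 kb from the 5′ end. Their pool signals were 11.9, 9.03 and 8.39 in pool I and 7.79, 6.22 and 6.49 in pool J. The widest body peak had 6642 bp but a signal of only 4.00, and pool J split it into 5 peaks.

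**Figure D1:**
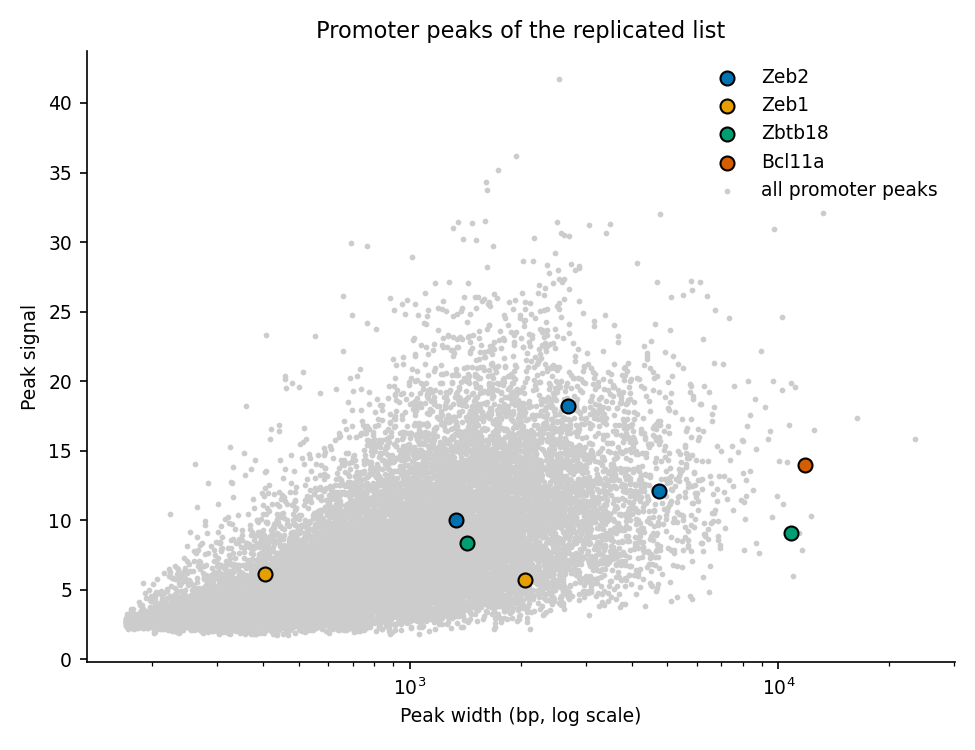
Width (bp, log scale) against signal of the 19727 promoter peaks of the replicated list, with those of the 4 genes in colour. Bcl11a and Zbtb18 lie at the wide edge at 11773 and 10807 bp, the highest Zeb2 peak has a signal of 18.2, and the Zeb1 peaks stay at signals of 6.12 and 5.66.

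Zeb1, the close relative of Zeb2, lies on chromosome 18 (plus strand, 183608 bp, ENSMUSG00000024238.15) and had narrower and fewer peaks. Its single basic-set start site lay inside a peak of pool I but not of pool J or of the replicated list, where the nearest peak began 84 bp away. The genes Gm10125 and Gm2238 also start within 1000 bp of both promoter peaks. The nearer peak had 404 bp and a signal of 6.12, with 5.61 in pool I and 6.93 in pool J. The farther one had 2059 bp and a signal of 5.66, with 6.76 in pool I and 5.22 in pool J. The pools thus ranked the Zeb1 promoter peaks in opposite order. Its gene body held 3 further peaks, all with the summit in the first intron and within 26.8 kb of the 5′ end, with signals of 4.09, 3.77 and 1.86. The weakest had no match in either pool. Among all 12719 coding genes with a promoter peak, the median highest signal was 8.86 and the median widest peak 1192 bp. Zeb1 was below that median in signal and above it in width. Zeb2 (18.2), Bcl11a (13.9) and Zbtb18 (9.07) were above both medians in the replicated list. Counted at basic-set starts, Zbtb18 was not above the median signal in both pools. Its highest promoter signal stood at percentile 68.3 of these genes in pool I and 43.1 in pool J. Zeb1 stood at 22.6 in pool I and 43.9 in pool J.

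A promoter peak was listed for 58.5% of all coding genes, and all 4 members had one in each of the 4 lists, which the choice of members fixes in part. The order of highest promoter signals was Zeb2, Bcl11a, Zbtb18 and Zeb1 in pool I, with 22.1, 17.2, 13.5 and 6.76. In pool J the values were 14.1 for Zeb2, 10.6 for Bcl11a, 6.86 for Zbtb18 and 6.93 for Zeb1. Zbtb18 and Zeb1 thus had close values there in the reverse order, and the difference was not tested. This order counts peaks at basic-set starts alone. The 699 bp and 270 bp peaks beside the 5′ end of Zbtb18, where no basic-set start lies, had pool J signals of 7.89 and 7.05. Both are above the 6.93 of Zeb1. Zeb2 and Bcl11a kept their places in both pools.

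**Figure D2:**
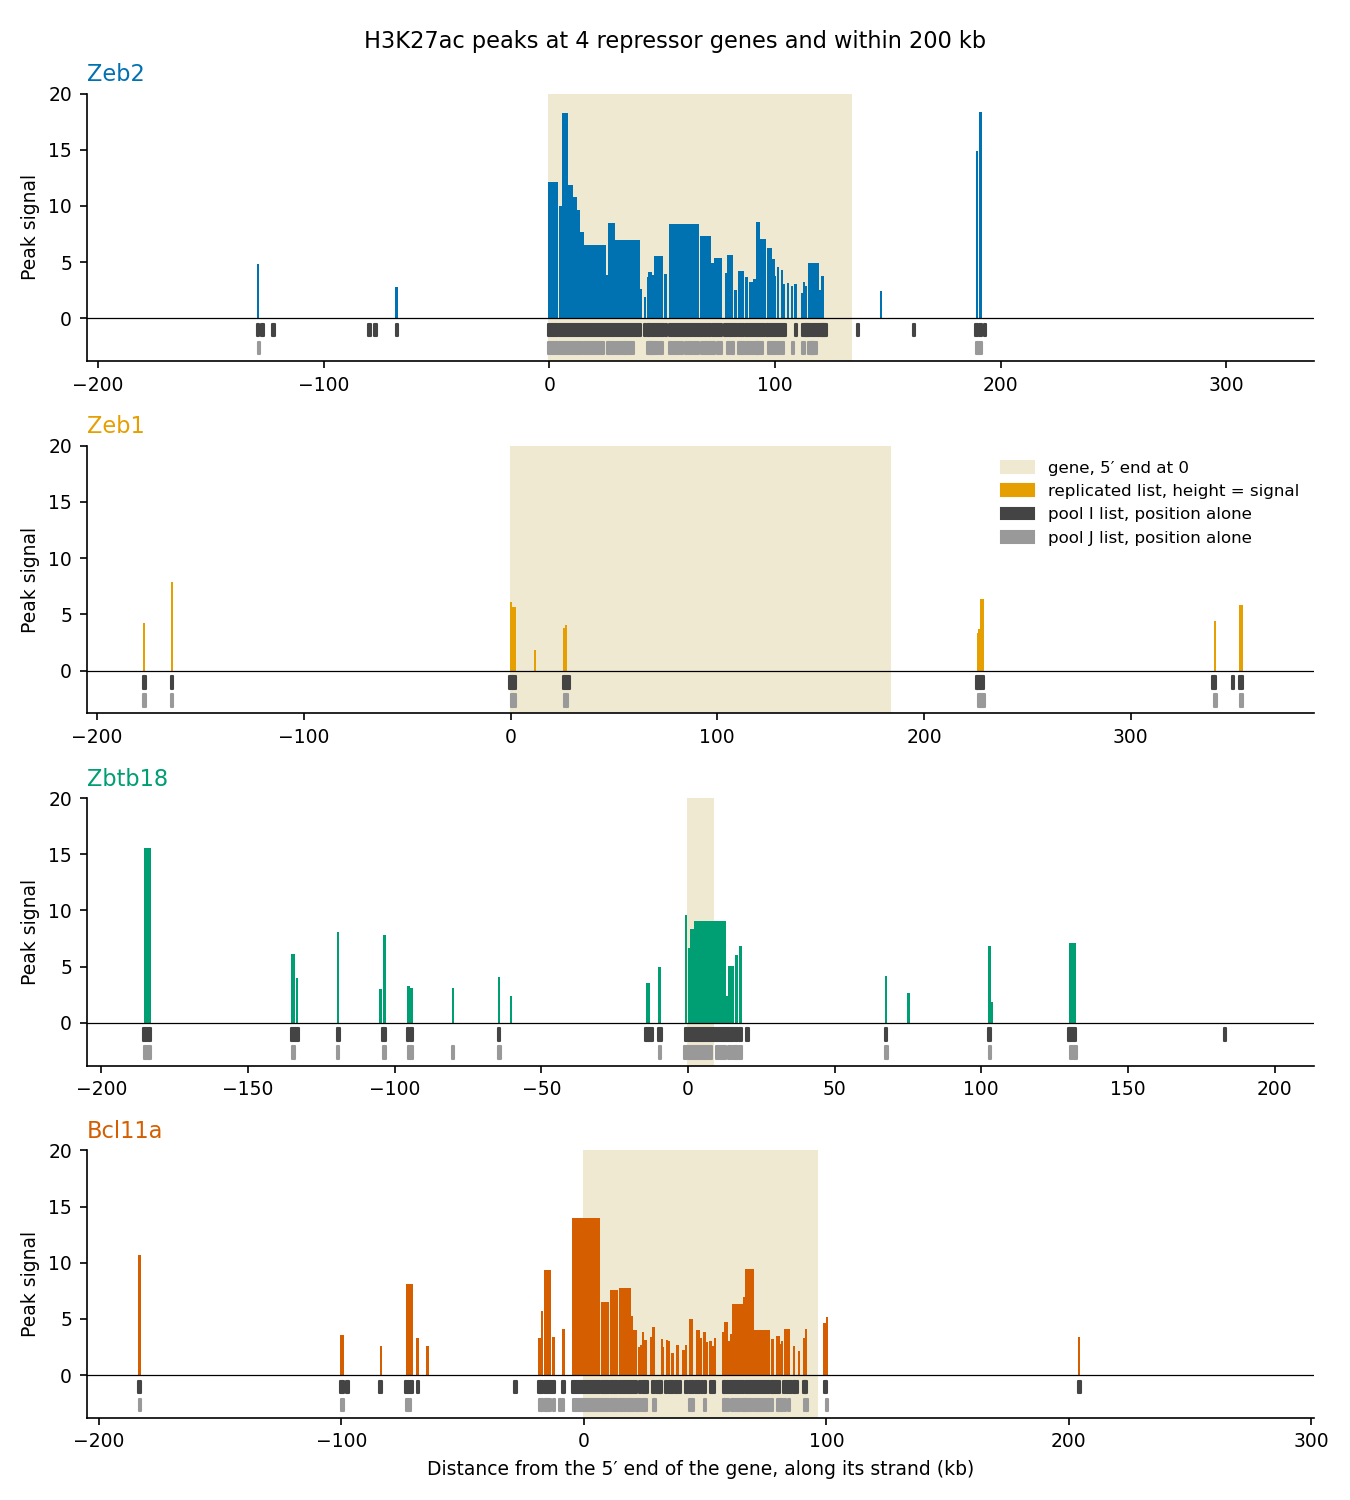
Peaks at the 4 genes by distance from the 5′ end of the gene (kb, along its strand). Bar height is the signal in the replicated list, and the grey rows give the places of pool I and pool J peaks; peaks too narrow to see are drawn at a minimum width. Zeb2 and Bcl11a are filled with peaks (43 and 44 in the gene body besides promoters), Zbtb18 has most of its 26 peaks in the flanks (23), and Zeb1 has 12 peaks in all.

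The share of each gene that lay inside peaks set Zeb1 apart from the other 3 genes. For Zeb2 it was 79.6% in pool I and 55.7% in pool J, and 73.4% in the replicated list. Of 3128 coding genes between 1/2 and 2 times its length, 1 gene, Nfix, had more, and their median was 2.00%. For Bcl11a it was 71.8% in pool I, 43.2% in pool J and 63.6% in the replicated list, with 4 of 4128 genes of like length above it. For Zbtb18 it was 97.6% in pool I, 88.8% in pool J and 94.9% in the replicated list, with 14 of 7325 genes of like length above it. For Zeb1 it was 2.65% in pool I, 1.54% in pool J and 2.10% in the replicated list, beside a median of 2.00% over 2332 genes of like length. Among 5000 coding genes of 50 kb or more, 12 (0.24%) had at least 50% of their length inside replicated peaks. Zeb2 stood second and Bcl11a sixth in that group, after Nfix with 80.4% and with Nuak1 (67.3%), Msra (66.3%) and Bcl2l1 (63.6%) between them. This share was measured on the same lists as the widths by which the genes were chosen and is a description.

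**Figure D3:**
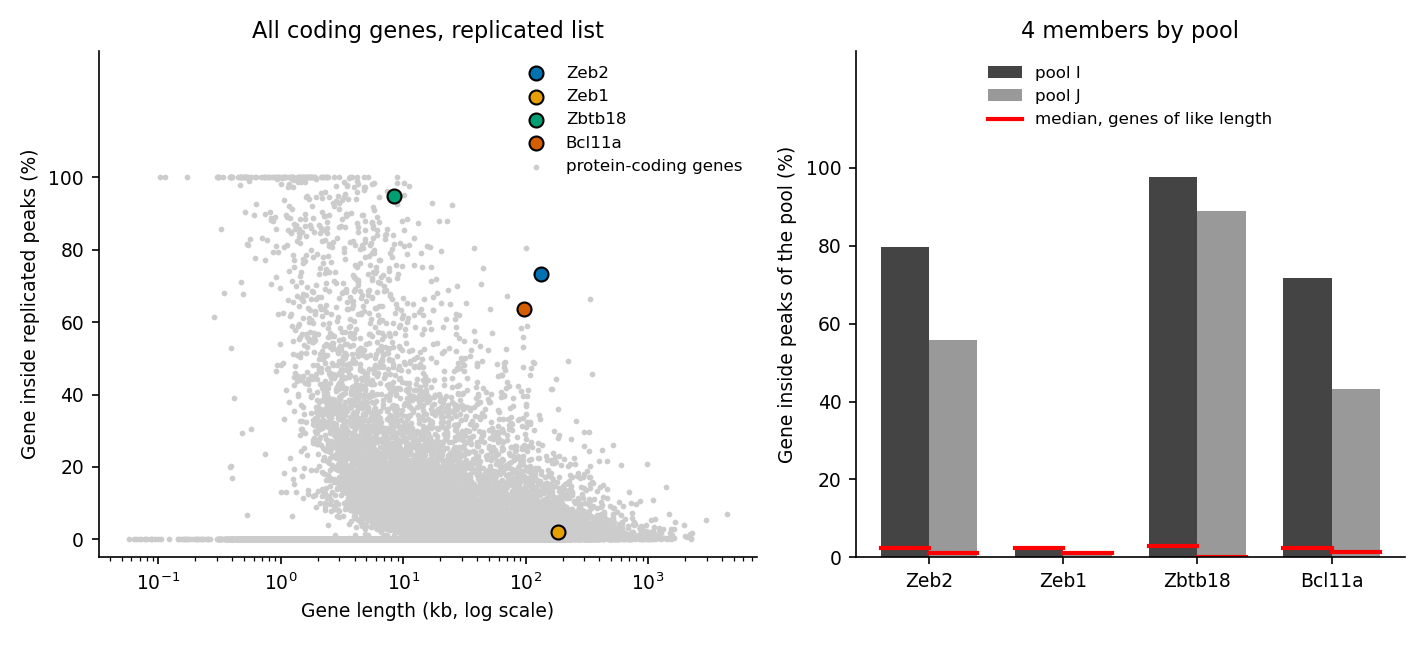
Left, share of each coding gene inside replicated peaks (%) against gene length (kb, log scale), with the 4 genes in colour. Right, the same share in pool I and pool J for the 4 genes, with the median of coding genes of like length as a red line: Zeb2 has 79.6% and 55.7%, Zeb1 2.65% and 1.54%, Zbtb18 97.6% and 88.8%, and Bcl11a 71.8% and 43.2%.

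Along the genes, peak cover was not even. Cut into 5 equal stretches from the 5′ end, Zeb2 was covered by replicated peaks for 95.7, 83.2, 91.4, 67.3 and 29.7% of each. The last stretch was lowest in both pools, with 34.4% in pool I and 14.2% in pool J. Bcl11a had 2 covered stretches with sparser ones between and after, at 96.6, 44.5, 43.1, 94.1 and 39.7%. In pool I its middle 3 stretches were at 58.2, 50.6 and 97.8%, and in pool J at 20.6, 13.1 and 75.0%. The fourth stretch of Bcl11a holds its highest body peak, the 3630 bp peak of signal 9.46. Zbtb18 was covered for at least 81.9% in every stretch of the replicated list. The peaks of Zeb1 were confined to its first stretch in the replicated, pool I and pool J lists, with 10.5, 13.3 and 7.72%, and its other 4 stretches were at 0. Absence from a peak list is no measure of absent acetylation, because a weak signal may have missed the caller's limit.

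**Figure D4:**
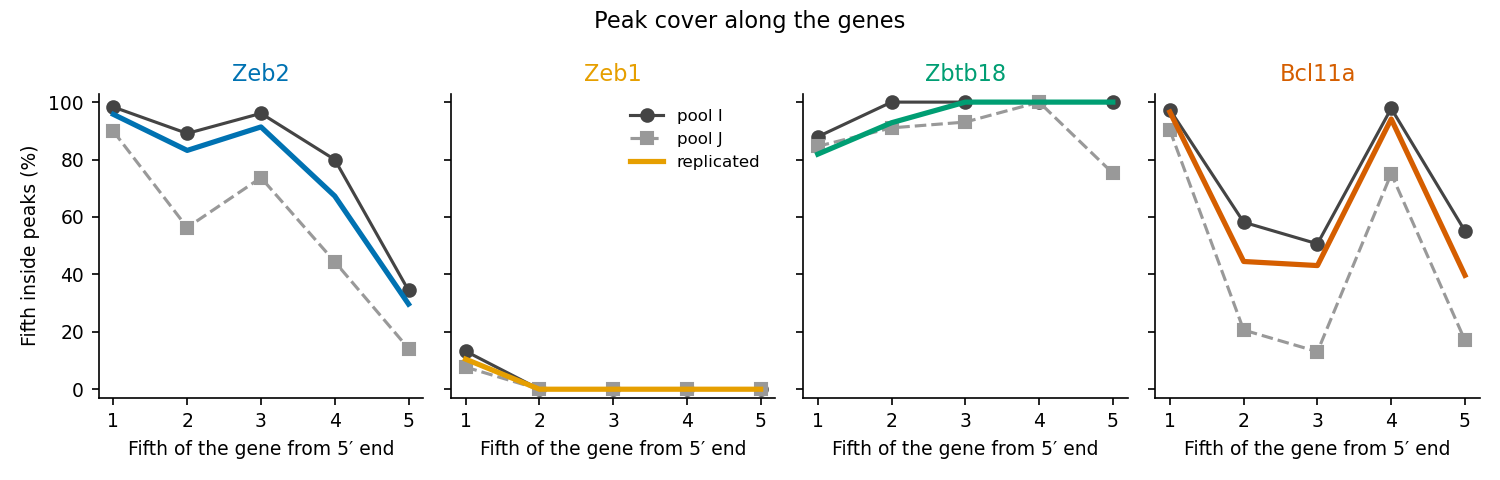
Share of each of 5 equal stretches of a gene, from its 5′ end, inside peaks (%), for pool I, pool J and the replicated list. Zeb2 cover is lowest in its last stretch (29.7% in the replicated list), Bcl11a has covered stretches at the start (96.6%) and in the fourth place (94.1%), and Zeb1 has cover in the first stretch alone (10.5%).

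Joining peaks no more than 1000 bp apart gave long regions at 3 of the genes. The Zeb2 promoters and the 5′ part of intron 3 formed a region of 41289 bp from 12 peaks, the second longest of 44213 joined regions, after one of 43876 bp at Nfix. Further regions of 26461 bp (rank 20) and 23490 bp (rank 31) lay in the same gene. In pool I the longest Zeb2 region, of 62376 bp, lay in the gene body, and the region over the promoters had 41408 bp. In pool J the longest was the region over the promoters, with 24904 bp. Bcl11a had regions of 30686 bp (rank 8) around its promoter and 21094 bp (rank 43) in its body, with 30745 bp as the longest in pool I and 27556 bp in pool J. All of Zbtb18 lay in 1 region of 19705 bp (rank 58), which was also 19705 bp in pool I and 9382 bp in pool J. The longest Zeb1 region had 2651 bp.

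In the flanks, Zbtb18 had 23 peaks, Bcl11a 14, Zeb1 7 and Zeb2 5. Of 23 flank peaks of Zbtb18, 14 were upstream and 9 downstream, and 5 lay at a promoter of another gene. Those described here are the 699 bp peak just before the gene (9.57, with 11.6 in pool I and 7.89 in pool J) and a 1003 bp peak 119 kb upstream (8.06, with 9.82 in pool I and 6.68 in pool J). Of 14 flank peaks of Bcl11a, 11 were upstream. Its highest was the 755 bp promoter peak of Papolg and Gm12061 (10.7, with 12.3 in pool I and 7.96 in pool J). A 2943 bp peak 15.01 kb upstream (9.33, with 12.5 in pool I and 8.36 in pool J) and a 2796 bp peak 72.2 kb upstream (8.10, with 10.4 in pool I and 6.05 in pool J) followed. In the flanks of Zeb2, the promoter peaks of Gtdc1 had signals of 18.4 (22.0 in pool I, 14.0 in pool J) and 14.9 (19.8 in pool I, 10.8 in pool J). The third highest, 129 kb upstream, had a signal of 4.85, with 5.51 in pool I and 4.44 in pool J. The highest peak of the whole Zeb1 locus was a flank peak, a 1085 bp peak 164 kb upstream with a signal of 7.86 (11.1 in pool I, 5.19 in pool J). Its next were a 1860 bp peak (6.39, with 8.89 in pool I and 5.79 in pool J) and a 1828 bp peak at the start of AC168050.1 (5.79, with 7.87 in pool I and 5.33 in pool J). A flank peak names a neighbour and was not assigned to the gene as its regulator.

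Peaks beyond the 200 kb limit were not counted. The farthest flank peaks inside it lay 129 kb from Zeb2, 177 kb from Zeb1 and 183 kb from Bcl11a. The nearest outside lay at 240 kb (signal 3.67) from Zeb2, 214 kb (12.5) from Zeb1, 225 kb (2.87) from Zbtb18 and 293 kb (1.96) from Bcl11a. The one left out at Zeb1 was thus higher than any peak inside the Zeb1 locus, where the highest signal was 7.86.

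A replicated peak counted as present in both pools where it overlapped a peak of each pool list by at least 1 bp, which held for 56.0% of all replicated peaks and for 82.2% of promoter peaks. Among replicated peaks of 2 kb or more it held for 5641 of 5649. That width was reached by 14 locus peaks of Zeb2, 1 of Zeb1, 4 of Zbtb18 and 11 of Bcl11a, beside 7.84% of the whole list. All 8 promoter peaks of the 4 genes, which were chosen by promoter peak width, were in both pools. Over the whole locus it held for 36 of 51 peaks of Zeb2 (70.6%), 10 of 12 of Zeb1 (83.3%), 18 of 26 of Zbtb18 (69.2%) and 33 of 59 of Bcl11a (55.9%), the last near the share of all peaks. Pool I alone matched 12 peaks of Zeb2, 3 of Zbtb18 and 16 of Bcl11a, whereas pool J alone matched 1 peak at each of the 4 genes. Neither pool matched 2 peaks of Zeb2, 1 of Zeb1, 4 of Zbtb18 and 9 of Bcl11a. The pool I list is longer than the pool J list (69834 against 49839 peaks) and its widest peak is 25620 bp, against 9904 bp.

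Where both pools had a match, pool I signals were higher in most peaks. The median ratio of pool I to pool J signal was 1.41 over 40346 matched peaks of the whole list, and 90.9% were above 1. It was 1.71 for Zeb2 (36 of 36 above 1, from 1.07 to 3.14), 1.53 for Zeb1 (8 of 10), 1.34 for Zbtb18 (16 of 18) and 1.49 for Bcl11a (31 of 33). Each replicated peak took the highest signal of any pool peak it overlapped, so 1 wide pool I peak could serve several replicated peaks. At Zeb2 the 25352 bp pool I peak (signal 12.7) did so, and the ratio of 3.14 came from it. The ratios at a gene are therefore not independent values. The ratio describes the 2 lists, whose signal scales and numbers of reads are not stated, and was not read as a difference between the mice of the pools. Wide replicated peaks of at least 2 kb had a median ratio of 1.49 over the whole list.

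**Figure D5:**
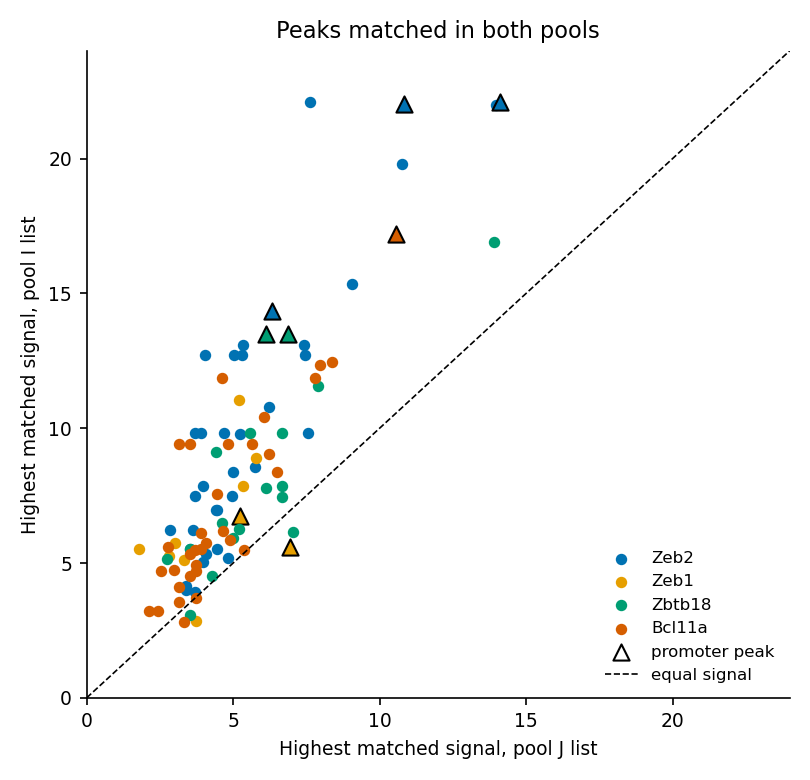
Highest matched signal in pool I (vertical) against pool J (horizontal) for the locus peaks found in both lists, with promoter peaks as triangles and equal signal as a dashed line. Nearly all points lie above the line, 36 of 36 for Zeb2 and 31 of 33 for Bcl11a, while a promoter peak of Zeb1 (5.61 in pool I, 6.93 in pool J) lies below it.

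The motifs of the 3 kinds of factor were looked up as letters in 300 bases centred on each summit, on both strands: CACCTG (an E-box of Zeb factors, CAGGTG on the other strand), CATCTG (the core of the element of Zbtb18, CAGATG on the other strand) and TGACCA (an element of Bcl11a, TGGTCA on the other strand). A window of the whole replicated list held CACCTG in 21.8%, CATCTG in 21.9% and TGACCA in 13.6% of cases. At Zeb2 these were 14, 13 and 2 of 51 windows (27.5, 25.5 and 3.92%), and at Bcl11a 11, 15 and 14 of 59 windows (18.6, 25.4 and 23.7%). Zbtb18 had 5, 6 and 4 of 26 windows and Zeb1 1, 3 and 2 of 12. Bases G and C made up a median of 44.7% of the Zeb2 windows and 48.3% of the Bcl11a windows, and the median over all peaks was higher than both. All 5 RefSeq start windows of Zbtb18 held CATCTG, at 4 distinct places since windows overlap, beside 17.2% of all RefSeq promoter windows. They held no CACCTG or TGACCA, and the RefSeq start windows of Zeb2 and Bcl11a held none of these motifs. A match is a run of letters and was not taken as a binding site.

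For each of 3 genes, a peak window rich in these letters and free of untranslated exons is shown with the matches in capitals. The Zeb2 window is at a 382 bp intron peak with a signal of 2.57 (chr2:45076962-45077261, mm10, minus strand) and holds each motif once. That peak is weak, with a −log10 q of 1.95 and no match in pool J. Its pool I match is the wide 25352 bp peak. The Zbtb18 window is at the 699 bp peak just before the gene (chr1:177441556-177441855, plus strand) and holds CACCTG at 2 places. The Bcl11a window is at the 3439 bp intron peak with a signal of 7.56 (chr11:24091714-24092013, plus strand) and holds 1 CACCTG and 2 CATCTG matches within a short distance.

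Zeb2 intron window: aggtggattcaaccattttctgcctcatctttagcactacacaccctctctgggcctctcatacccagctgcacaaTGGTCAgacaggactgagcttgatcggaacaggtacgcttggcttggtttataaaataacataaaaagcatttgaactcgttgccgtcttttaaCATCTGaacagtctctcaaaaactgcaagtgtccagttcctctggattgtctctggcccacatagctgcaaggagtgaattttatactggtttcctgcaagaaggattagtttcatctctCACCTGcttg

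Zbtb18 upstream window: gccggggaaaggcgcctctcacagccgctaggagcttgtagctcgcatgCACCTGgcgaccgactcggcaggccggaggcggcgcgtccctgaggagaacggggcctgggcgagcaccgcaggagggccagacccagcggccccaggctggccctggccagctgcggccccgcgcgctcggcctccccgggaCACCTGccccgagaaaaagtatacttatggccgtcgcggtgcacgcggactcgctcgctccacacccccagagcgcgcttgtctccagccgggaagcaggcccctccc

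Bcl11a intron window: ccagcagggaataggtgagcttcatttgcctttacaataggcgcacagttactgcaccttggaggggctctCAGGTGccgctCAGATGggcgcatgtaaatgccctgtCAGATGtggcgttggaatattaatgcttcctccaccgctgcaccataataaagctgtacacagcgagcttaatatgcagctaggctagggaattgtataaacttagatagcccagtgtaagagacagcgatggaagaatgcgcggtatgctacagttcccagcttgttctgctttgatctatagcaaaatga

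Genes with a like pattern were sought over 5 measures, as percentiles among the 12719 coding genes with a promoter peak: widest promoter peak, highest promoter signal in pool I and in pool J, and numbers of body and flank peaks. The nearest to Zeb2 was Tcf4, the gene of an E-box factor, at a distance of 3.90 percentile points, followed by Sgms1 (5.22) and Phactr3 (5.61). The widest promoter peak of Tcf4 had 16348 bp, beside 4741 bp at Zeb2, and Tcf4 also had more body peaks. Nearness in percentiles thus did not mean like widths or like numbers of body peaks. Bcl11a was nearest to Gpm6a (5.18), a neuronal membrane protein gene, Opcml (7.11) and Mcf2l (7.12). Gpm6a had 5276 bp and 15 body peaks, beside 11773 bp and 44 at Bcl11a. Zbtb18 was nearest to Tspoap1 (12.1), Gm43951 (15.02) and Tubb3 (15.3), the last a tubulin gene of neurons. Their widest promoter peaks had 5494, 3180 and 2333 bp, beside 10807 bp at Zbtb18. Zeb1 was nearest to Shf (8.38), Tom1l1 (11.8) and D430019H16Rik (12.4), so no pair of the 4 genes was among each other's 3 nearest.

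Partners and targets of these factors were counted on gene lists, each beside the 58.5% of all coding genes with a promoter peak. Of their relatives, 7 of 8 had one in the replicated list, led by Zbtb45 (16.5, with 17.9 in pool I and 14.8 in pool J) and Zbtb7a (16.0, with 20.7 in pool I and 14.9 in pool J). Zbtb42 had none, and Bcl11b, the paralog of Bcl11a that marks subcerebral projection neurons, had a promoter peak of 3634 bp with a signal of 6.76 (7.13 in pool I, 7.29 in pool J). All 10 CtBP and CoREST co-repressor genes had one, led by Hdac2 (18.9, with 26.3 in pool I and 13.2 in pool J) and Ctbp1 (18.5, with 23.6 in pool I and 13.0 in pool J). The list of NuRD genes was complete at 12 of 12, led by Mbd3 (20.1, with 20.9 in pool I and 18.6 in pool J) and Rbbp4 (18.7, with 21.2 in pool I and 15.9 in pool J). Of 3 DNA methyltransferase genes, Dnmt3a (16.1) and Dnmt1 (7.08) had one and Dnmt3b had none.

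Upstream of the Zeb factors, 14 of 14 genes of Smads and of BMP and TGF-beta receptors carried a promoter peak by the replicated and pool I lists, and 13 in pool J. They were led by the BMP receptor gene Bmpr2 (18.6, with 23.9 in pool I and 13.4 in pool J) and by Bmpr1a (15.7, with 18.2 in pool I and 13.4 in pool J), and Bmpr1b was the one without a pool J peak. Among the 13 genes described as repressed or regulated by the 4 factors, 7 were marked at a promoter in the replicated list, 7 in pool I and 6 in pool J. Of all coding genes, 58.5% had a promoter peak, with a median signal of 8.86. The median was 8.48 for the list of relatives and 10.2 to 11.6 for the other lists. For the 7 genes marked here it was 6.39, and the difference was not tested. The highest was Id2 (8.87, with 13.2 in pool I and 6.42 in pool J), followed by Id3 (7.14, with 10.4 in pool I and 5.38 in pool J), and both encode inhibitors of bHLH factors that Zbtb18 is known to repress. All 4 Id genes had a promoter peak. No promoter peak was listed for Cdh1, the E-cadherin gene repressed by Zeb factors in epithelial cells, nor for Sfrp1 or Ntf3, nor for Neurog2 or the globin genes Hbb-y and Hbb-bh1. These 6 genes had no promoter peak in either pool list. The shares are descriptions of the lists, since no test was made and the genes of a complex are not independent.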

How the data were processed

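H3K27ac ChIP-seq peaks of 2 pools of left cerebral cortex were analysed from the authors' deposited lists on mm10. Per the file descriptions in the labels, a replicated and a pseudoreplicated list come from both pools and 1 pseudoreplicated list from each pool. The deposited lists give for each peak a signal and a −log10 q, both set by the authors' peak caller, and both served to rank or filter peaks within a list. Pool I and pool J signals are set side by side as deposited, and their scales may differ. For the aligner, the caller and how the signal was normalized, the sources used here name nothing. The depth is unknown, and no counting interval was made. Reads of the CAST/EiJ copy differ from the reference at strain variants, whose effect was not tested. Technical libraries share 1 list per pool, so a pool is 1 value.

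Peaks of the autosomes and X were joined to the GENCODE vM21 basic annotation with Python 3.11.15, pandas 2.3.3 and numpy 2.4.6, and bases were read from GRCm38.p6 with pysam 0.24.0. Figures used matplotlib 3.10.9. The look-ups were tested on simulated intervals. A promoter peak overlapped 1000 bp on either side of a basic-set start site. Peaks near other starts alone were classed as gene body or flank peaks. The 4 genes, the 6 gene lists, the motifs and the alternatives were chosen with earlier results of these data known, and no test was made. Named are all promoter peaks, the 3 highest body and flank peaks of each gene, the 2 highest members of a list and up to 3 without a peak, and the 3 most like genes. Genes outside that rule (Nfix, Nuak1, Msra and Bcl2l1, and further genes of the lists) were named after their values were seen. One flank peak of Zbtb18 is not reported here.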

Additional observations from a re-analysis of the deposited data

How the results depend on the processing

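Of 52 settings other than leaving out a pool, 38 kept a width within the SD between pools or a count within 1.5 times. That SD, from 2 values, was 156 bp at Zeb2, 100 bp at Zeb1, 6889 bp at Zbtb18 and 3366 bp at Bcl11a. The pseudoreplicated list of both pools, a −log10 q of at least 5 and a 2500 bp window left the widest promoter peak of all 4 genes unchanged. The genes were chosen by these widths, so the tally is a description and no measure of robustness. Joining peaks within 1000 bp widened the promoter peak to 41289 bp at Zeb2, 2651 bp at Zeb1, 19705 bp at Zbtb18 and 30686 bp at Bcl11a, and lowered the locus peaks to 11 at Zeb2, 15 at Zbtb18 and 23 at Bcl11a. Start sites of every annotated transcript gave Zeb2 a promoter peak of 13451 bp, the widest intron peak described above. A window of 500 bp left Zeb1 with 404 bp. A −log10 q of at least 5 left 17 locus peaks at Zbtb18 and 30 at Bcl11a, and, asked of the pool peaks, 5 shared peaks at Zeb1 and 21 at Bcl11a. Flanks of 100 kb left 6 shared peaks at Zeb1. With either pool left out, the widest promoter peak was 4583 to 4803 bp at Zeb2, 1953 to 2095 bp at Zeb1, 3236 to 12979 bp at Zbtb18 and 7072 to 11832 bp at Bcl11a, the lower value in pool J each time. The number of locus peaks was 47 to 62 at Zeb2, 11 to 16 at Zeb1, 23 to 24 at Zbtb18 and 51 either way at Bcl11a. The widths of Zbtb18 and Bcl11a without pool I were thus over 1.5 times lower, and the cause was not tested. No paired analysis was possible because each pool has 1 peak list and no test was made.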
